A study of Mus musculus with 19 samples.

Results

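The Slc15 family encodes proton-coupled carriers of small peptides. Its members Slc15a1, Slc15a2, Slc15a3 and Slc15a4 were followed through RNA sequencing of mouse lung and of sorted alveolar type II (AT2) cells, which line the alveolus and secrete surfactant. The 4 genes were found by symbol among the 36528 gene IDs of the deposited tables. The family was selected on its read counts across the 4 groups of these same libraries, and which of the contrasts between them drew attention to it is not recorded. The members' levels and fold changes below are therefore a description, with intervals and no p-values.

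Control mice carried SpcCreERT2, a tamoxifen-activated Cre recombinase under the surfactant protein C promoter, together with the RosatdTomato reporter. The mice labelled Etv5KO had the genotype SpcCreERT2;RosatdTomato;Etv5ko/loxp, so that 1 Etv5 allele was a knockout in every cell and the loxP-flanked allele could recombine only where that promoter was or had been active. Etv5 is a transcription factor of the ETS class. Every mouse, controls included, received tamoxifen at 100 mg/kg body weight for 5 days and was left for a further 5 days. AT2 cells were sorted as EpCAM+, tdTomato+, CD45- and CD31-. The files hold 4 control and 5 Etv5KO AT2 libraries, with 5 of each genotype from whole lung. The series names 5 mice of each genotype, and the fifth sorted control was not analysed here. Strain, age and the mouse behind each library were not given in the sources used here, so AT2 and lung libraries may share mice, and spread and intervals describe these libraries.

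Totals ran from 14971793 to 28671262 counted reads per library, and levels are given as CPM, counts scaled to library size with edgeR's TMM factors. The Etv5KO label was not matched by less Etv5 RNA, which averaged 667 ± 36.1 CPM (SD, n = 4) in control and 714 ± 58.4 (n = 5) in Etv5KO AT2 cells, and 104 ± 7.20 and 113 ± 10.8 (n = 5 each) in lung. Reads from exons outside a deleted part would still be counted, so the RNA level by itself does not check the deletion. The sort was visible in the marker genes: in controls all 15 AT2 markers stood higher after the sort than in lung, by 2.65 to 3.27 on the log2 scale. The library AT2_control 2 stood apart on the second principal component, at -19.9 against -9.98 to 14.8 for the other AT2 libraries. In lung, lung_control 1 lay at -11.7 on the first component, among the Etv5KO libraries (-16.1 to 2.49) and apart from the other controls (7.56 to 13.4). Without AT2_control 2, the log2 fold changes between genotypes in AT2 cells described below were 1.88 for Slc15a1 and -0.91 for Slc15a2, and without lung_control 1 those in lung were 1.68 and -0.60.

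Slc15a1 (PEPT1) is the low-affinity, high-capacity carrier of dipeptides and tripeptides best known from the intestinal brush border. Slc15a2 (PEPT2) is its high-affinity relative, known from kidney and from lung epithelium including AT2 cells, and it also carries peptide-like drugs such as beta-lactam antibiotics. Both sit in the plasma membrane and use the inward proton gradient. Slc15a3 (PHT2) and Slc15a4 (PHT1) move histidine and small peptides out of endosomes and lysosomes of immune cells, where Slc15a4 also holds the adaptor TASL that links endosomal Toll-like receptors to the transcription factor Irf5. The remaining family gene, the orphan Slc15a5, had 1 read in each of 2 libraries and 0 in the other 17, where a count of 0 allows up to 3 reads of the total, at most 0.111 to 0.200 CPM before TMM scaling (counting error only).

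The promoters of the members are shown because the mice were made to lose an ETS factor in AT2 cells. Each window runs from 250 bases before to 50 bases after the annotated start, on the minus strand, 5′ to 3′, from the RefSeq promoter table of build GRCm38.p6. Capitals mark the ETS core letters GGAA or their reverse complement TTCC. The windows are chr14:121505205-121505504 for Slc15a1, chr16:36784913-36785212 for Slc15a2 and chr5:127617343-127617642 for Slc15a4. Slc15a3 is named only, since no promoter window was available for it.
Slc15a1: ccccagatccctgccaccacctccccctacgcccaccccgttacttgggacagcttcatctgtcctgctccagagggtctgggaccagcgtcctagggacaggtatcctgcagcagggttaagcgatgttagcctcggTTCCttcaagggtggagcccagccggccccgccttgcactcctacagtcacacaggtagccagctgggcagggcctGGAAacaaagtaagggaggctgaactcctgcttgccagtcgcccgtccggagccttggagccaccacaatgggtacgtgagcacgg
Slc15a2: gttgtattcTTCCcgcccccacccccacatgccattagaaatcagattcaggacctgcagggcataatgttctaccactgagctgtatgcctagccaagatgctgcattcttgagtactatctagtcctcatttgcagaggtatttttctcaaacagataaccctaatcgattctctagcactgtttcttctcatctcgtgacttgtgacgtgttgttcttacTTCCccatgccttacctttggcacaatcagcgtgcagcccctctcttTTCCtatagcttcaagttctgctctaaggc
Slc15a4: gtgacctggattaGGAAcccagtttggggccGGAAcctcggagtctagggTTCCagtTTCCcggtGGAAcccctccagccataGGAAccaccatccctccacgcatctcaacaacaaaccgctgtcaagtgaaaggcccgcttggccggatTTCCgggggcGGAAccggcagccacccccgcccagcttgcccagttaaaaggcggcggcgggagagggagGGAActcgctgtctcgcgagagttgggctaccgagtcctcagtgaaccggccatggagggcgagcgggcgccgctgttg
The Slc15a1 window holds 2 cores and the Slc15a2 window 3, where the median over 32851 promoters of the same length is 3 and 96.0% hold at least 1. The Slc15a4 window holds 9, a number reached or passed by 1.59% of promoters. The longer form CCGGAAGT, found on either strand of 3.89% of promoters, occurs in none of these 3 windows. Whether the number of cores goes with the genotype differences described next was not tested. No factor binding was measured, the deposited counts were made on another build, and a letter match is no evidence of a site.

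Slc15a1 was the member with the largest difference between genotypes, and it was higher in Etv5KO libraries of both kinds. In control AT2 cells it stood at 21.5, 28.3, 22.7 and 19.5 CPM in libraries 1 to 4, and in Etv5KO AT2 cells at 61.8, 92.7, 85.8, 77.9 and 71.2 CPM in libraries 1 to 5. These values rest on 329 to 582 reads per control and 942 to 2029 reads per Etv5KO library. The groups did not overlap, and the lowest Etv5KO library held more than 2 times the level of the highest control. The group means were 23.0 ± 3.77 (SD, n = 4) and 77.9 ± 12.1 CPM (n = 5), a log2 fold change of 1.76 (SE 0.14, 95% interval 1.47 to 2.06) or 3.39-fold. Of 10645 genes averaging 5 CPM or more in this comparison, that change ranked 15 from the highest. The family was picked on these same counts, so nothing is read from this rank or from the members' ranks given below.

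In whole lung the same gene was low in controls, at 3.52, 3.87, 2.92, 4.03 and 3.28 CPM, and higher in Etv5KO libraries, at 13.3, 11.9, 10.6, 11.8 and 9.10 CPM. Every Etv5KO library lay above every control here too, on 62 to 112 reads against 215 to 334. The means were 3.52 ± 0.448 and 11.3 ± 1.58 CPM (n = 5 each), a log2 fold change of 1.68 (SE 0.13, 1.40 to 1.96) or 3.21-fold. This change ranked 3 from the highest of 12708 genes averaging 5 CPM or more over both groups. The control mean lay below 5 CPM, so Slc15a1 entered that ranking through the Etv5KO libraries, and nothing is read from the rank. In bulk lung, a different number of cells of a type and a different amount of RNA per cell cannot be told apart.

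Slc15a2 was lower in Etv5KO AT2 cells. Control libraries stood at 143, 168, 157 and 177 CPM and Etv5KO libraries at 85.7, 68.5, 101, 84.5 and 79.5 CPM. The groups were again fully apart, with the lowest control above the highest Etv5KO library. The means were 161 ± 14.8 (SD, n = 4) and 83.9 ± 11.9 CPM (n = 5), a log2 fold change of -0.93 (SE 0.11, -1.17 to -0.70) that ranked 105 from the lowest among the same 10645 genes.

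In lung, Slc15a2 measured 29.6, 26.9, 42.7, 30.2 and 40.2 CPM in controls and 27.8, 21.3, 20.7, 25.6 and 21.1 CPM in Etv5KO libraries. The groups overlapped, since Etv5KO library 1 lay above control library 2. The means were 33.9 ± 7.03 and 23.3 ± 3.22 CPM (n = 5 each), a log2 fold change of -0.55 (SE 0.14, -0.85 to -0.24), 52 from the lowest of 12708 genes.

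**Figure D1:**
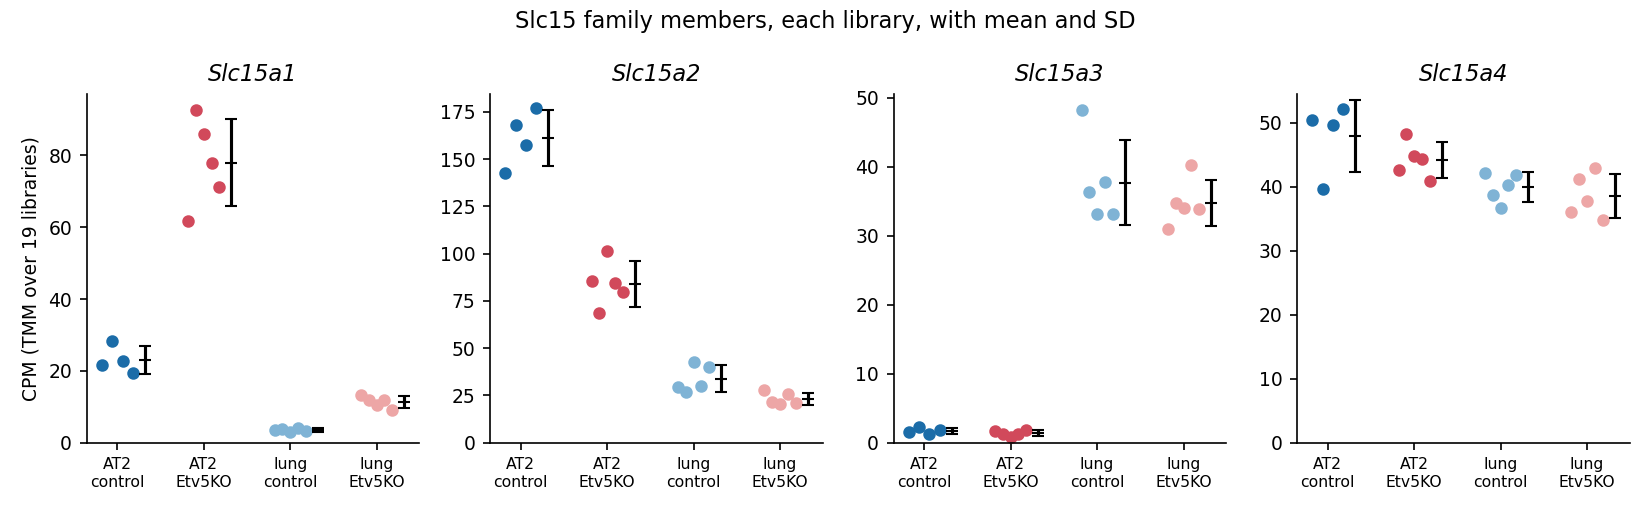
CPM of the 4 members (linear vertical axis from 0, a scale of its own in each panel, TMM over all 19 libraries), with a point for each library of the 4 groups and the mean and SD of each group beside its points. Slc15a1 lies higher and Slc15a2 lower in Etv5KO AT2 cells with no overlap, Slc15a3 is low in AT2 cells and high in lung, and Slc15a4 lies between 34.9 and 52.2 CPM in all 19 libraries.

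By the edgeR threshold on all genes (Benjamini-Hochberg adjusted p under 0.05), 2 of the 4 members were past it in AT2 cells, Slc15a1 and Slc15a2, where 9.87% of all tested genes were. The same 2 of 4 had groups that did not overlap, as did 12.5% of all tested genes. In lung 1 of 4 was past it, Slc15a1, against 0.415% of all genes, and 1 of 4 had groups that did not overlap, against 1.55%. Since the family was picked with these contrasts known, nothing is read from those counts. In lung, DESeq2 put 2 of 4 members past its threshold, with Slc15a2 as the second, from which nothing is read either.

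**Figure D2:**
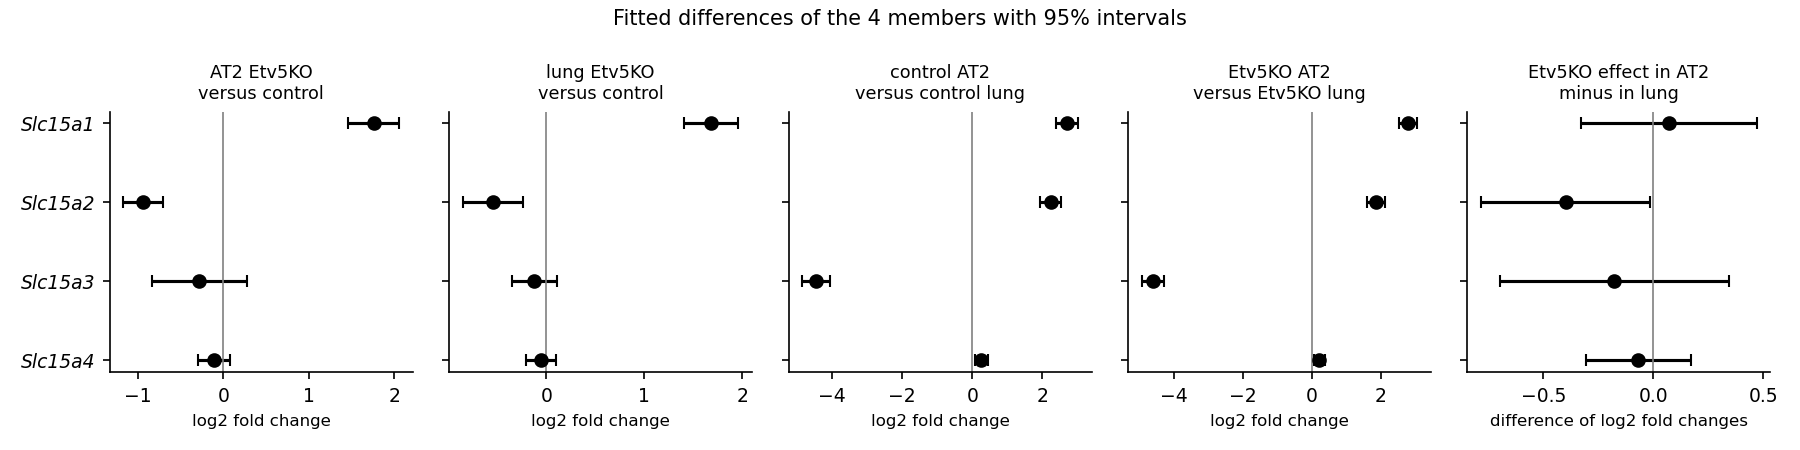
Log2 fold change of each member with its 95% interval from the edgeR fits, for Etv5KO against control in AT2 cells and in lung, for AT2 cells against lung within each genotype, and for the difference of the genotype effects (each panel has its own horizontal scale). The intervals of Slc15a1 and Slc15a2 lie on opposite sides of 0 in both genotype comparisons, and those of Slc15a3 and Slc15a4 include 0 there.

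In AT2 cells the order of the plasma membrane pair per gene length was reversed between the genotypes, and in lung it was not. To set the genes side by side, the deposited RPKM (reads scaled by library depth and gene length, divided by the authors' size factor) was used. On that per-length scale Slc15a2 stood at 27.8 ± 2.46 and Slc15a1 at 6.92 ± 1.14 in control AT2 cells (SD, n = 4), and at 14.7 ± 2.01 and 23.8 ± 3.74 in Etv5KO AT2 cells (n = 5). The ranges of the 2 genes were apart in both groups, with Slc15a2 above in controls and Slc15a1 above in Etv5KO. In control lung Slc15a2 was the higher at 6.04 ± 1.27 against 1.09 ± 0.139, and in Etv5KO lung the levels were 4.16 ± 0.577 and 3.52 ± 0.483 (n = 5 each), with overlapping ranges, although Slc15a2 was the higher of the pair within each of the 5 libraries.

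The share of Slc15a1 in the summed RPKM of the pair, a quantity computed after the values had been seen, was 19.9% ± 2.77 in control AT2 cells and 61.6% ± 5.33 in Etv5KO AT2 cells. Controls lay between 16.1% and 22.7% and Etv5KO libraries between 55.7% and 70.2%. In lung it was 15.8% ± 4.09 (10.6% to 20.01%) and 45.8% ± 2.41 (42.9% to 49.2%). The sum of the pair differed far less: 34.8 ± 2.77 and 38.5 ± 3.91 RPKM in AT2 cells, and 7.13 ± 1.15 and 7.68 ± 1.00 in lung, with overlapping ranges in both. Without division by length, the shares were 12.5%, 48.1%, 9.79% and 32.7% in the same order of groups, because the gene model of Slc15a1 is 0.575 times as long as that of Slc15a2.

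**Figure D3:**
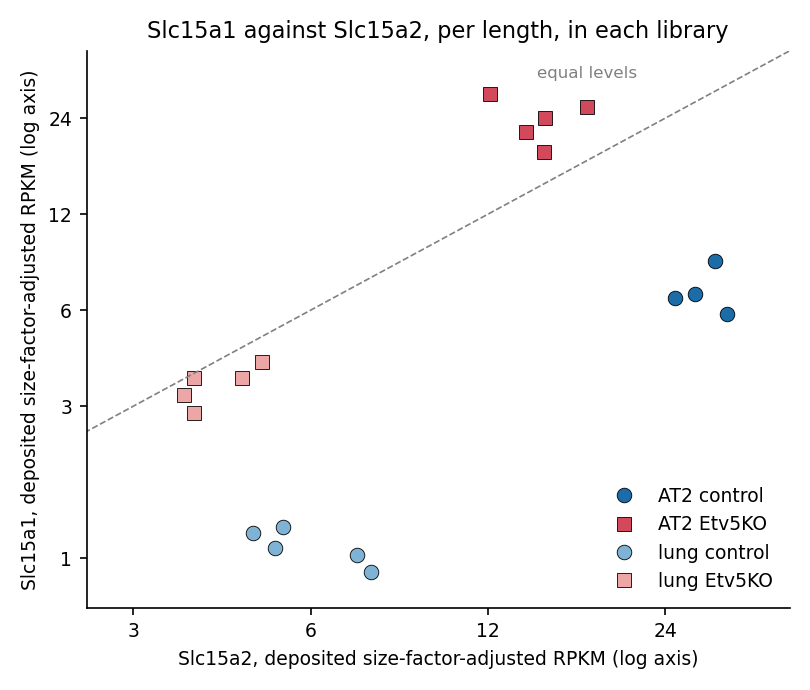
Deposited RPKM of Slc15a2 (horizontal, log axis) against Slc15a1 (vertical, log axis), 1 point per library, coloured by group, with the diagonal of equal levels. The Etv5KO AT2 libraries lie above the diagonal, the control AT2 and control lung libraries below it, and the Etv5KO lung libraries just below it.

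Slc15a3 was scarce in sorted AT2 cells and abundant in lung. It averaged 1.72 ± 0.425 CPM in control AT2 cells (SD, n = 4, 28 to 47 reads per library) and 1.42 ± 0.379 in Etv5KO AT2 cells (n = 5, 21 to 35 reads), against 37.7 ± 6.22 and 34.8 ± 3.36 CPM in control and Etv5KO lung (n = 5 each). The log2 fold change between genotypes was -0.28 (-0.84 to 0.27) in AT2 cells and -0.12 (-0.35 to 0.10) in lung. Groups overlapped in both, and at this depth a change in AT2 cells within that wide interval was not detectable.

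Slc15a4 was the most even member. Control AT2 cells stood at 50.5, 39.6, 49.7 and 52.2 CPM and Etv5KO AT2 cells at 42.7, 48.4, 44.8, 44.4 and 40.9 CPM. Control lung averaged 39.96 ± 2.31 and Etv5KO lung 38.6 ± 3.45 CPM (n = 5 each). The genotype groups overlapped in both, with log2 fold changes of -0.11 (-0.30 to 0.07) in AT2 cells and -0.06 (-0.21 to 0.10) in lung. These intervals exclude a change of the size seen for Slc15a1 or Slc15a2 in AT2 cells.

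By RPKM, the order of the 4 members in control AT2 cells was Slc15a2 at 27.8, Slc15a4 at 14.6 ± 1.72, Slc15a1 at 6.92 and Slc15a3 at 0.690 ± 0.172, with no overlap between neighbours. In Etv5KO AT2 cells Slc15a1 at 23.8 led, Slc15a2 at 14.7 and Slc15a4 at 13.7 ± 0.911 overlapped, and Slc15a3 was last at 0.578 ± 0.154. In control lung the order was Slc15a3 at 15.5 ± 2.47, Slc15a4 at 12.6 ± 0.717, Slc15a2 at 6.04 and Slc15a1 at 1.09, again without overlap. In Etv5KO lung Slc15a3 at 14.4 ± 1.42 and Slc15a4 at 12.2 ± 1.08 overlapped, as did Slc15a2 and Slc15a1 below them. The plasma membrane pair thus made up most of the family's RNA in AT2 cells of either genotype, and the endolysosomal pair most of it in lung.

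Between control AT2 cells and control lung, Slc15a1 differed by a log2 value of 2.71 (SE 0.14), Slc15a2 by 2.25 (SE 0.14), Slc15a4 by 0.26 (SE 0.09, 0.07 to 0.46) and Slc15a3 by -4.45 (SE 0.18), which is 21.9-fold lower in AT2 cells. In Etv5KO libraries the same differences were 2.80, 1.87, 0.21 and -4.61. All 4 members were past the threshold in controls, where 74.5% of all tested genes were, and all 4 in Etv5KO, where 78.0% were. In controls 3 of 4 members had no overlap, against 66.5% of all genes, and in Etv5KO 3 of 4, against 65.7%. Nothing is read from these counts either. The groups of Slc15a4 overlapped in both, and its direction depended on scaling: with library size alone, which moved the median of all genes from -0.01 to -0.42 in controls, and from 0.01 to -0.36 in Etv5KO, it was -0.15 in both genotypes. Under the same scaling, 12802 genes were past the threshold in controls, 3318 higher and 9484 lower, where TMM gave 12754, 6092 higher and 6662 lower. For Etv5KO the split was 3579 and 9341 in place of 6417 and 6646.

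Slc15a3 was lower in AT2 cells by about as much as many markers of other lung cells. Of 12 macrophage and dendritic cell markers, 11 were lower in the sorted than in the lung libraries of controls, with a median log2 value of -4.57 over the list. The exception was Lyz1, a lysozyme gene, at 3.18. The other lists of cells outside the AT2 type had medians of -4.04 (ciliated), -5.13 (neutrophil), -5.17 (lymphocyte), -5.50 (endothelial), -6.19 (mesenchymal), -3.30 (AT1) and -0.67 (airway secretory), so the value of -4.45 does not single out 1 of them. Ptprc, which encodes the CD45 used in the sort, averaged 8.70 ± 3.45 CPM in control and 8.30 ± 1.45 in Etv5KO AT2 cells, against 251 ± 52.2 and 225 ± 51.1 in lung. No marker of that list was at 0 in any group. Whether the remaining Slc15a3 reads of AT2 libraries came from AT2 cells or from other cells was not tested.

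**Figure D4:**
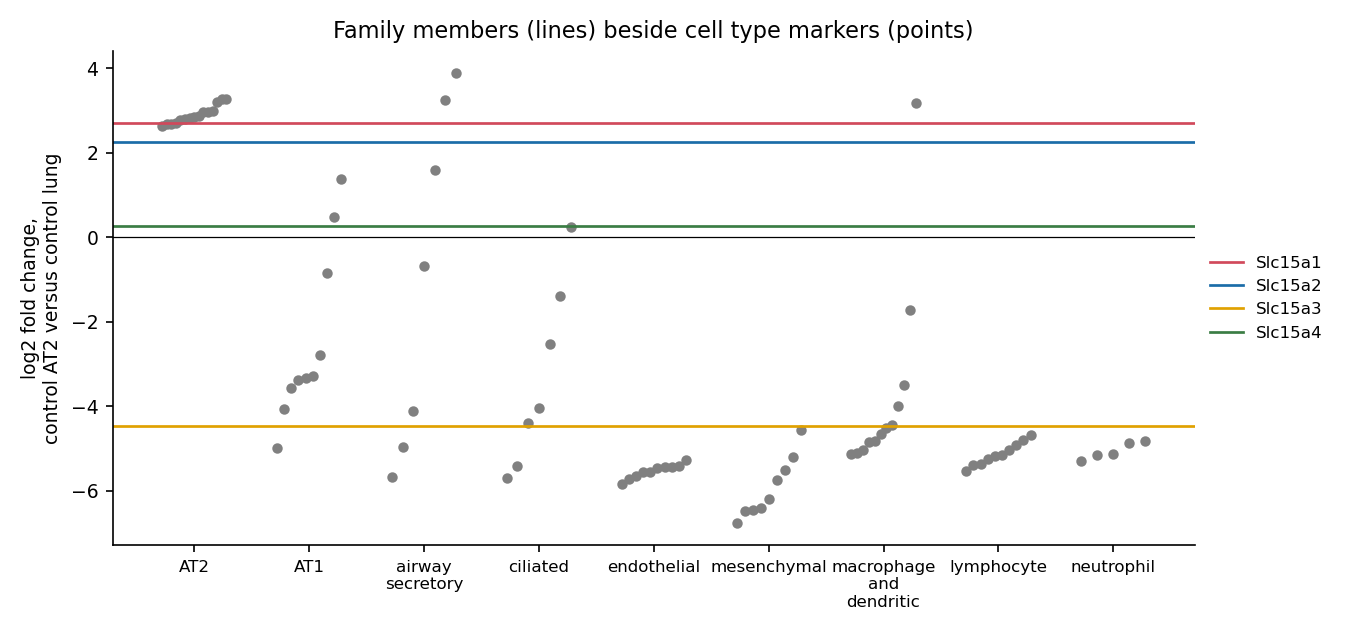
Log2 fold change of control AT2 cells against control lung (edgeR), with a point for each gene of the cell type marker lists and a horizontal line for each Slc15 member. The line of Slc15a1 at 2.71 lies within the AT2 markers and that of Slc15a2 at 2.25 just below them, and the line of Slc15a3 at -4.45 lies among markers of several other cell types, the macrophage and dendritic list included.

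Slc15a1 and Slc15a2 lay with or near the AT2 markers between tissues, where those were 2.65 to 3.27 higher on the log2 scale in AT2 cells. Other epithelial markers also differed between the genotypes within AT2 cells. The counts past the edgeR threshold that follow stand beside 9.87% of all genes tested in AT2 cells. Of the 15 AT2 markers 6 fell and 0 rose in Etv5KO AT2 cells, with a median log2 change of -0.34, and their summed level ran from 190090 to 289131 CPM in controls and 165959 to 215145 in Etv5KO. Of 10 AT1 markers, genes of the flat alveolar type I cells, 5 rose and 1 fell, with sums of 3435 to 4303 and 4899 to 5313 CPM. Of 7 airway secretory markers 3 rose, with sums of 322 to 742 and 632 to 966 CPM, and of 7 ciliated markers 2 rose, with sums of 114 to 131 and 171 to 227 CPM. Of 10 endothelial markers 1 rose, which is close to that share, and of the 10 macrophage and dendritic markers tested 2 rose. None of the 8 mesenchymal, 4 lymphocyte or 5 neutrophil markers tested passed. Their log2 changes had medians of 0.51 (0.07 to 0.65), 0.51 (0.43 to 0.72) and 0.06 (-0.87 to 0.30). The endothelial list had 0.28 (0.02 to 0.84) and the macrophage and dendritic list -0.09 (-0.93 to 0.71). All tested mesenchymal, lymphocyte and endothelial markers thus had estimates above 0, and the counts do not show that these lists were unchanged. Whether other cells were carried over to differing degrees was not tested. No marker of any list was at 0 in a group.

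As sums, control lung held more AT1 marker RNA (6412 to 7046 CPM) and far more airway secretory marker RNA (13687 to 26625 CPM, mostly Scgb1a1) than either AT2 group. Gene by gene the lists were split in controls. Of 10 AT1 markers 2 were higher in AT2 cells than in lung and 8 lower, and of 7 airway secretory markers 3 were higher and 3 lower. The Slc15a1 level of control lung was 2.92 to 4.03 CPM, below every AT2 library. In lung, where Slc15a1 was 3.21-fold higher in Etv5KO, 0 of 10 AT1, 0 of 6 airway secretory and 0 of 7 ciliated markers tested passed the edgeR threshold. Of 15 AT2 markers 2 fell, with a median of -0.21. Only 0.415% of all tested genes passed in lung, so the counts of 0 do not show that these markers were unchanged. What share of the members' differences goes with these cell type markers was not tested further.

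The genotype effects of AT2 cells and lung were also compared in 1 fit of all 19 libraries, as the effect in AT2 cells minus that in lung. The difference was 0.07 (-0.33 to 0.47) for Slc15a1, -0.40 (-0.78 to -0.02) for Slc15a2, -0.18 (-0.70 to 0.34) for Slc15a3 and -0.07 (-0.30 to 0.17) for Slc15a4. In that fit 1.59% of all genes were past the edgeR threshold, and no test of the members is drawn on. As a ratio of the fold changes, the interval for Slc15a1 runs from 0.795 to 1.39, so it does not show that the effects in AT2 cells and lung were equal.

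Peptidases of the cell surface, lysosome and cytosol make and split the small peptides that the Slc15 carriers move. Of 22 such genes 18 could be tested in AT2 cells, and 5 rose and 2 fell in Etv5KO, with a median log2 change of 0.07 beside -0.01 over all genes, of which 9.87% passed. Dpep2, a membrane dipeptidase, rose from 21.0 ± 1.18 CPM in control (SD, n = 4) to 68.7 ± 3.89 in Etv5KO AT2 cells (n = 5), a log2 change of 1.71 (SE 0.07, edgeR adjusted p = 2.73e-07). Its relative Dpep3 rose from 0.141 ± 0.0280 to 0.852 ± 0.312 CPM (adjusted p = 0.00108), on 2 to 4 reads per control and 10 to 30 per Etv5KO library, so that it entered the test through the group in which it was higher. Dpep1, named after its values were seen, rose from 2.18 ± 0.301 to 5.71 ± 2.74 CPM (adjusted p = 0.0130, up to 0.0489 with 1 library left out). In controls, scaled within that comparison, Dpep1 stood at 2.49 CPM in AT2 cells against 112 in lung (log2 -5.51). Whether its reads in AT2 libraries came from AT2 cells or from other cells was not tested.

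Anpep, the aminopeptidase N that trims peptides at the cell surface, fell from 680 ± 82.9 to 387 ± 36.0 CPM (log2 -0.82, SE 0.10, adjusted p = 3.42e-04). The other 3 calls were smaller, with Mme (log2 0.51) and Tpp1 (0.40) higher and Ctsc (-0.43), the lysosomal dipeptidyl peptidase, lower. In lung 1 of 19 tested passed with edgeR, and that was Anpep, which fell from 120 ± 9.91 to 74.3 ± 9.95 CPM (n = 5 each, log2 -0.69, SE 0.09, adjusted p = 0.00570). With DESeq2 3 of 19 passed in lung. Over all genes 0.415% passed in lung with edgeR.

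Amino acids released from peptides leave or enter cells through a separate set of plasma membrane carriers. Of 25 such genes 19 were tested in AT2 cells, where 3 rose and 1 fell, with a median of -0.02. Over all genes 9.87% passed there. Slc7a7, a light chain that exports cationic amino acids, rose from 6.99 ± 0.833 to 13.6 ± 0.820 CPM (log2 0.96, SE 0.11, adjusted p = 1.73e-04). Slc43a2, a carrier of large neutral amino acids, rose from 353 ± 20.5 to 469 ± 58.9 CPM (adjusted p = 0.0174), a call that was lost without AT2_control 1 or 3 (adjusted p up to 0.0640). Slc38a4, a sodium-coupled neutral carrier, fell from 59.2 ± 11.2 to 34.3 ± 8.51 CPM (adjusted p = 0.0178), and that call was lost without AT2_control 4 (0.0595). The remaining call, Slc6a14 at log2 0.21, was lost in most fits that left out 1 library. None of 22 tested passed in lung with edgeR or DESeq2, while 5 had an unadjusted p under 0.05 with edgeR. Over all genes 0.415% passed in lung with edgeR.

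Of 20 lysosomal amino acid exporters and nutrient sensors, 19 were tested in AT2 cells. There 0 rose and 3 fell, with a median of -0.15, and the number that fell was 1 with library size scaling. Over all genes 9.87% passed in AT2 cells. Mfsd12, a lysosomal cysteine importer, stood at 33.9 ± 2.53 and 23.5 ± 1.56 CPM (log2 -0.53, adjusted p = 0.00119). Ctns, the lysosomal cystine exporter, stood at 31.2 ± 2.70 and 24.6 ± 0.810 CPM (log2 -0.34, adjusted p = 0.0122, 0.0912 with library size scaling). Rragd, a GTPase of the nutrient sensing complex on lysosomes, had overlapping groups at 78.5 ± 7.80 and 64.0 ± 4.67 CPM (adjusted p = 0.0385), and its call was lost without AT2_control 1 or 3 or any of Etv5KO 2 to 5 (up to 0.122). In lung none of 19 passed with edgeR or DESeq2, and 0 had an unadjusted p under 0.05. Over all genes 0.415% passed in lung with edgeR.

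None of the 11 tested genes of endosomal Toll-like receptor and NOD sensing, the pathway in which Slc15a4 and Slc15a3 are known to act, passed in AT2 cells with edgeR or DESeq2, and 0 had an unadjusted p under 0.05. Irf5 stood at 1.51 ± 0.468 and 1.53 ± 0.398 CPM there, and Unc93b1, the chaperone of endosomal receptors, at 30.0 ± 3.36 and 29.1 ± 2.83. In lung none of 15 passed with either tool, and 1 had an unadjusted p under 0.05. Over all genes the shares that passed were 9.87% in AT2 cells and 0.415% in lung.

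Proton exchangers restore the gradient that drives peptide uptake, and scaffold proteins hold the carriers at the apical membrane. Of 11 such genes 9 were tested in AT2 cells, with 0 higher and 1 lower. That count is close to the 9.87% of all genes that passed there. Slc9a7, a sodium-proton exchanger of the trans-Golgi network, fell from 6.59 ± 0.292 to 3.36 ± 0.696 CPM (adjusted p = 0.00204). Pdzk1, a PDZ scaffold of apical transporters including Slc15a2, stood at 4.18 ± 0.555 and 4.17 ± 0.545 CPM with overlapping groups. None of 10 passed in lung with edgeR or DESeq2, and 0 had an unadjusted p under 0.05. Over all genes 0.415% passed in lung with edgeR.

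Of 8 genes of histidine and carnosine metabolism 4 were tested in AT2 cells, where 9.87% of all genes passed. Of these 4 genes 1 passed. This was Hdc, which makes histamine from histidine and which fell from 505 ± 49.99 to 145 ± 30.6 CPM (log2 -1.80, SE 0.14, adjusted p = 1.90e-05). In lung none of 5 passed with edgeR, beside 0.415% of all genes, and 1 of 5 passed with DESeq2. Hdc there had a log2 change of -0.84 with an edgeR adjusted p of 0.0651.

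**Figure D5:**
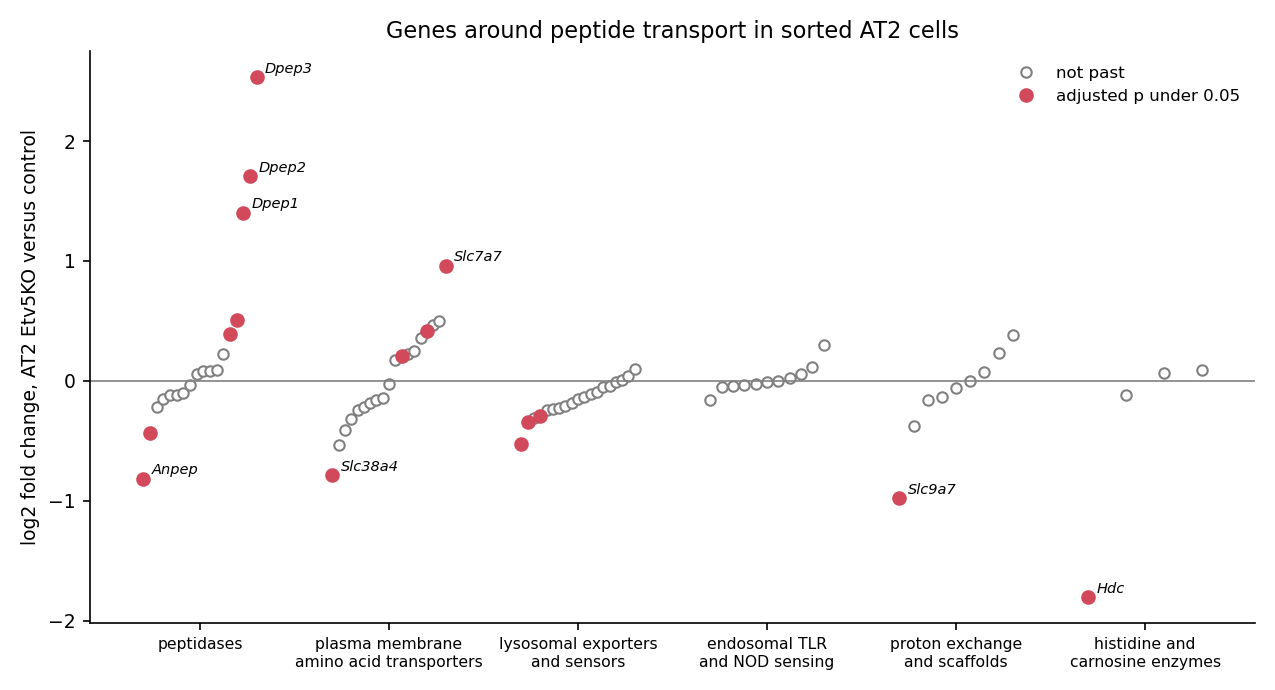
Log2 fold change in Etv5KO against control AT2 cells (edgeR) for each tested gene of 6 lists around peptide transport, ordered within each list, with filled points past the adjusted p threshold of 0.05. Dpep1, Dpep2 and Dpep3 are the highest peptidases, Anpep the lowest, and Hdc is the lowest gene shown.

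Between control AT2 and lung libraries most genes differed (74.5% of all tested, 6092 higher and 6662 lower of 17118), and the lists below stand against that share. Of the peptidases, 11 of 19 tested were higher in AT2 cells and 6 lower. Anpep (777 against 105 CPM) and Ctsc (1633 against 425 CPM) were among the higher, and Ace, the angiotensin-converting enzyme of endothelium, was far lower at 28.7 against 1416 CPM. Of 22 amino acid carriers 9 were higher and 13 lower, with Slc38a5 (0.395 against 27.2 CPM), Slc7a10 (1.34 against 22.8 CPM) and Slc1a4 (3.22 against 30.0 CPM) the lower ones with the smallest p. Among 19 lysosomal genes 10 were higher and 4 lower, a share past the threshold close to that of all genes. Rragd (89.7 against 15.1 CPM) and Flcn (153 against 49.8 CPM), a regulator of that GTPase, were among the higher. With library size alone the peptidases split into 9 and 8 and the lysosomal genes into 5 higher and 8 lower.

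Of the 15 sensing genes tested, 3 were higher and 12 lower in AT2 cells, and 0 and 12 with library size alone, with a median log2 difference of -1.58 by TMM. The list was spread widely: Myd88 at 0.55, Traf6 at 0.41 and Irak1 at 0.38 were the higher ones, and Ripk2 at -0.25, Nod1 at -0.78 and Irak4 at -0.88 were the least lower. Irf5 stood at 1.72 against 40.9 CPM, Tlr7 at 0.828 against 24.8 and Tlr8 at 0.340 against 15.7. These 3 genes had the smallest p of the list, and their log2 differences of -4.55, -4.88 and -5.50 stand beside -4.45 for Slc15a3 and 0.26 for Slc15a4. Of the other lists, 3 of 10 proton exchange and scaffold genes were higher and 6 lower, and 1 of 4 histidine and carnosine genes was higher, which was Hdc at 577 against 89.0 CPM, and 1 lower.

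The genes most like each member were sought by the root mean square (RMS) difference of centred log2 CPM over the 19 libraries among 12244 genes, a distance that carries the shared tissue and genotype groups. For Slc15a1, whose own RMS deviation was 1.65, these were Myom2 at 0.258, 9230117E06Rik at 0.366 and Dgkg at 0.378. Myom2, which encodes a myomesin of striated muscle, averaged 3.51 and 16.3 CPM in control and Etv5KO AT2 cells and 0.525 and 2.11 in lung. It therefore met the limit of a mean of 5 CPM over the 19 libraries only through Etv5KO AT2 cells, where it was highest. For Slc15a2 (own deviation 1.09) the nearest was Snx25, a sorting nexin, at 0.160, with 773 and 435 CPM in AT2 cells and 173 and 119 in lung, followed by an ID without a symbol in the tables used and by Whrn at 0.231.

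For Slc15a3 (own deviation 2.26) the nearest were Havcr2, which encodes the immune receptor TIM-3, at 0.186, Plekho2 at 0.228 and Pld4 at 0.238. Each averaged below 5 CPM in AT2 cells of both genotypes and met the limit of 5 CPM through lung. For Slc15a4, which varied little (0.161), they were Gpi1 at 0.0809 and Josd1 at 0.0860, with an ID without a symbol at the same rounded distance.

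Neighbours were the nearest 2 protein-coding RefSeq genes on each side that were tested in AT2 cells. Those of Slc15a1, which are Stk24, Farp1, Dock9 and Ubac2, did not pass in AT2 cells or lung, with log2 changes of -0.14 to 0.30. The same held for Ildr1, Csta2, Eaf2 and Iqcb1 around Slc15a2, at -0.15 to 0.72. It also held for Vps37c, Ddb1, Tmem132a and Tmem109 around Slc15a3, at -0.48 to 0.08. Around Slc15a4, Tmem132d rose in AT2 cells (log2 0.65, SE 0.11, edgeR adjusted p = 0.00361). In lung it had a similar estimate (log2 0.61, SE 0.14) and did not pass (edgeR adjusted p = 0.127). Over all genes 9.87% passed in AT2 cells and 0.415% in lung. The other neighbours of Slc15a4, which are Tmem132c, Aacs and Glt1d1, passed in neither. In the annotation the span of Slc15a3 overlaps Tmem132a, with 8896 reads over the 19 libraries, and that of Slc15a4 overlaps Glt1d1, with 1900 reads. The sources used here do not say whether counting used strand, so reads in such overlaps may not be separable.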

How the data were processed

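RNA was sequenced from 9 AT2 and 10 lung libraries. Per the file headers, the deposited count column holds uniquely aligned reads per gene model, and the deposited RPKM column was divided by the authors with a size factor. GSNAP (version not given) and mm9 were used, per the submitters' processing notes. The counting tool, annotation release and use of strand were not given in the sources used here. Of 36528 Entrez IDs, 31049 were named from RefSeq (GRCm38.p6), 77 from GENCODE and 5402 kept their ID. The named genes held 98.8% of counts. RPKM equalled the counts scaled by 1 factor for each library and 1 length for each gene (0 values off by more than 1e-06 on the log2 scale).

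Counts were tested in R 4.3.3 with edgeR 4.0.16 (filterByExpr, minimum count 10 and total 15, TMM, two-sided quasi-likelihood F test, Benjamini-Hochberg over all genes, threshold 0.05). Each comparison was fitted on its own groups, and the difference of genotype effects on all 19 libraries. The script was tested on simulated data. CPM of members, markers, likeness and Etv5 are scaled over all 19 libraries, and CPM of other genes within their comparison. Alternatives were DESeq2 1.42.0, its size factors, library size alone, no filter, all 19 libraries in 1 fit and each library left out. Libraries were grouped by their labelled genotype and tissue and numbered in accession order. The labels do not say that libraries are separate mice, so p-values measure only the spread between libraries.

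The members and the gene lists were chosen with earlier results of these data known, and 2 genes of the lists are not reported here. Named besides the family and Etv5 were up to 3 genes of each list with the smallest p past the threshold per comparison, 3 genes most like each member (prior count 2, mean of at least 5 CPM) and the most abundant markers.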

Additional observations from a re-analysis of the deposited data

Results flagged for a closer look

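In 108 groups of libraries examined for the genes named, 3 held a library far from the others, where chance gives about 1 in 20 (5%). That number is below the chance share, so nothing is read from these 3. The CPM values here are scaled over all 19 libraries and so differ from those within a comparison. Slc1a4 stood at 22.6 CPM in lung Etv5KO library 4, with the nearest other library at 30.2. Slc7a7 stood at 6.58 CPM in AT2 control library 4, with the nearest at 8.36. Etv5 stood at 94.4 CPM in lung Etv5KO library 3, with the nearest at 112. No member of the Slc15 family had such a library.

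The genotype effect in AT2 cells differed from that in lung for 5 of the peptide and amino acid genes (edgeR interaction term, adjusted over all genes, of which 1.59% passed). These were 1 of 21 peptidases, 1 of 22 amino acid carriers and 1 of 19 lysosomal genes tested. The others were 1 of 10 proton exchange and scaffold genes and 1 of 5 histidine and carnosine genes, with 0 of 15 sensing genes. On the log2 scale the difference was 1.11 (SE 0.16, adjusted p = 3.52e-04) for Dpep2 and 0.93 (SE 0.13, adjusted p = 3.52e-04) for Slc7a7, both more positive in AT2 cells. It was -0.97 (SE 0.24, adjusted p = 0.0410) for Hdc, -0.84 (SE 0.21, adjusted p = 0.0426) for Slc9a7 and -0.45 (SE 0.11, adjusted p = 0.0357) for Mfsd12, all more negative in AT2 cells. The calls for Dpep2 and Slc7a7 held with each library left out. Those for Hdc, Slc9a7 and Mfsd12 were lost without any of 14 or more single libraries, with adjusted p up to 0.107, 0.101 and 0.147.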

How the results depend on the processing

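Leaving out 1 library, the log2 fold change of Slc15a1 ranged from 1.69 to 1.88 in AT2 cells and from 1.62 to 1.76 in lung, and that of Slc15a2 from -1.01 to -0.87 and from -0.62 to -0.44. In lung, 71 genes were past the threshold, against 197 with DESeq2 and 122 in the fit of all 19 libraries, and 44 to 80 with 1 library left out (44 without lung_control 4, 47 without lung_control 3). Of the peptide and amino acid genes, 1 passed in lung, against 2 with no filter, 4 with DESeq2, 4 in the fit of all 19 libraries and 1 to 2 with 1 library left out. With library size alone, control AT2 cells against control lung gave 2.31 for Slc15a1, 1.85 for Slc15a2, -4.86 for Slc15a3 and -0.15, a reversed sign, for Slc15a4. The same scaling for Etv5KO gave 2.43, 1.496, -4.98 and -0.15. In AT2 cells it called 894 genes higher and 482 lower, where TMM gave 751 and 723. For the difference of genotype effects, 282 genes passed, 467 with DESeq2 and 198 to 319 with 1 library left out; of the peptide and amino acid genes 5 passed, 2 with library size alone, 3 with no filter and 2 to 4 with 1 library left out. The share of Slc15a1 in the pair by undivided reads was 12.5%, 48.1%, 9.79% and 32.7%. The cause of these changes was not tested, apart from the lengths used in the share. Of the further checks on single genes, 656 kept their side of the threshold and 61 did not, and none changed direction. No paired analysis was possible because the labels carry no replicate numbers. Depth limits Slc15a3 in AT2 cells, at 21 to 47 reads per library.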
